A study of Mus musculus with 3 samples.

Results

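Liver stores glucose as glycogen, and 9 genes of that store are described here. Of these, 4 encode enzymes that make the building block of the polymer, build the polymer or break it. Another encodes a subunit of the kinase that switches on its breakdown, and 4 encode subunits that bring a phosphatase to the polymer. The genes were chosen by name (Gys2, Pygl, Gbe1, Ugp2, Phka2, Ppp1r3b, Ppp1r3c, Ppp1r3d and Ppp1r3g), and all 9 were found among the 49492 entries of the deposited tables. RNA was sequenced from livers of CD-1 mice, an outbred strain, in 3 groups of 1 library each. One group received nanoparticles of zinc oxide (ZnO) for 12 weeks, given orally each day as a sonicated suspension at 25 mg/kg body weight, the next received the same daily dose for 8 weeks, and the control received an equal volume of phosphate-buffered saline (PBS). The title of the study concerns insulin resistance caused by the particles. The sex and age of the mice, the number of animals per library, the age of the control, the feeding state and the hour of collection were not stated in the sources used here. How long the control received PBS was not given in the sample labels. Each group being a single library, differences could not be set against replicates, and p-values were not computed.

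Glycogen is made from UDP-glucose, the product of Ugp2. Glycogen synthase, Gys2 in liver, adds the glucose to the chain, and the branching enzyme Gbe1 sets the branch points. Glycogen phosphorylase, Pygl in liver, takes glucose off again and is switched on by phosphorylase kinase, whose liver regulatory subunit is Phka2. Protein phosphatase 1 (PP1) opposes that kinase: it activates the synthase and inactivates the phosphorylase when a targeting subunit of the Ppp1r3 family holds it on the glycogen particle. Ppp1r3b is the classical liver subunit, Ppp1r3c is also known as PTG (protein targeting to glycogen) and is found in liver and muscle, and Ppp1r3g is known in mouse liver as a subunit that takes part in glycogen storage after a meal.

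The genes lie apart in the genome, on mm10 coordinates. Ppp1r3c occupies chromosome 19, 36731737 to 36736653 on the minus strand, in 2 exon blocks. Ppp1r3g occupies chromosome 13, 35958839 to 35970388 on the plus strand, in 3 exon blocks. Gbe1 occupies chromosome 16, 70313949 to 70569716 on the plus strand, in 16 exon blocks. Gys2 is on chromosome 6 (142422613 to 142473109), Pygl on chromosome 12 (70190811 to 70231488), Ugp2 on chromosome 11 (21321138 to 21371201), Ppp1r3b on chromosome 8 (35375739 to 35388139), Ppp1r3d on chromosome 2 (178411206 to 178414472) and Phka2 on the X chromosome (160502166 to 160598878).

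Ppp1r3c, Ppp1r3g and Gbe1 were at least 2-fold different from the control in at least 1 treated library, and the sequences before the start sites of these 3 genes are shown for that reason. Each is the stretch from 250 to 54 bases before the RefSeq start (GRCm38.p6), 5′ to 3′ on the gene's strand, and none of its bases lies in an exon of the gene in the deposited tables. For Ppp1r3g the RefSeq start lies at the second exon block of the tables, not the first. Capitals mark matches to the motifs searched.
Ppp1r3c, chr19:36736658-36736854, minus strand: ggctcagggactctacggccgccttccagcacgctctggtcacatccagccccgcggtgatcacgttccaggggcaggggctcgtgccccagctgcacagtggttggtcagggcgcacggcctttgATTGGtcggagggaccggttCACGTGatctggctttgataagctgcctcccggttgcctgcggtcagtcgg
Ppp1r3g, chr13:35967656-35967852, plus strand: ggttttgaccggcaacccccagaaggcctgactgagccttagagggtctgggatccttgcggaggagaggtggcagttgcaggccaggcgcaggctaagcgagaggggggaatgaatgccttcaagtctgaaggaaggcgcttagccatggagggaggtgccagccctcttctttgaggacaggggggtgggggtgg
Gbe1, chr16:70313699-70313895, plus strand: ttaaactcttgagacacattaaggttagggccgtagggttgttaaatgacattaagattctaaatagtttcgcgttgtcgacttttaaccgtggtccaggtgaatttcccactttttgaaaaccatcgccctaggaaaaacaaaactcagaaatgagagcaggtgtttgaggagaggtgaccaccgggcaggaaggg

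The motifs searched on both strands, whose matches do not overlap in these windows, were the E-box CACGTG, the core of the cAMP response site TGACG and the core of many nuclear receptor sites AGGTCA. Also searched were the promoter element CCAAT, the GC box with its letters GGGCGG, and the TATA box with its letters TATAAA. The Ppp1r3c window held 1 E-box and 1 CCAAT box on the reverse strand. An E-box was present in 4.24% of 32851 windows of the same 197 bases, and a CCAAT box in 27.9%. The windows of Ppp1r3g and Gbe1 held none of the motifs, which says only that these letters are not in them. RefSeq entries were matched for 7 of the 9 genes, and the window of Ppp1r3d, which is not shown, also held 1 E-box.

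The deposited counts summed to 13263211 at 12 weeks, 14258770 at 8 weeks and 13614979 in the control. Values are given as CPM, counts relative to library size after scaling of library sizes, when 1 gene is compared between libraries. Differences are log2 ratios of CPM + 1, which understate the change of low genes, over 14585 genes with at least 1 CPM in 1 library, and a gene was called at 2-fold, which is a rule of size. Intervals are exact 95% intervals of the counts (Poisson) or of their ratio (Clopper-Pearson), and they cover counting error only. Of the 9 genes 8 were kept. At 12 weeks 2 of the 8 were called, against 4.46% of all genes, at 8 weeks 3 of the 8, against 6.25%, and between 12 and 8 weeks 0 of the 8, against 2.51% (1.28% higher and 1.23% lower). The median log2 ratio of the 8 was 0.46 at 12 weeks and 0.63 at 8 weeks against the control, where the medians over all genes were -0.01 and -0.02. Both comparisons share the control library.

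**Figure D1:**
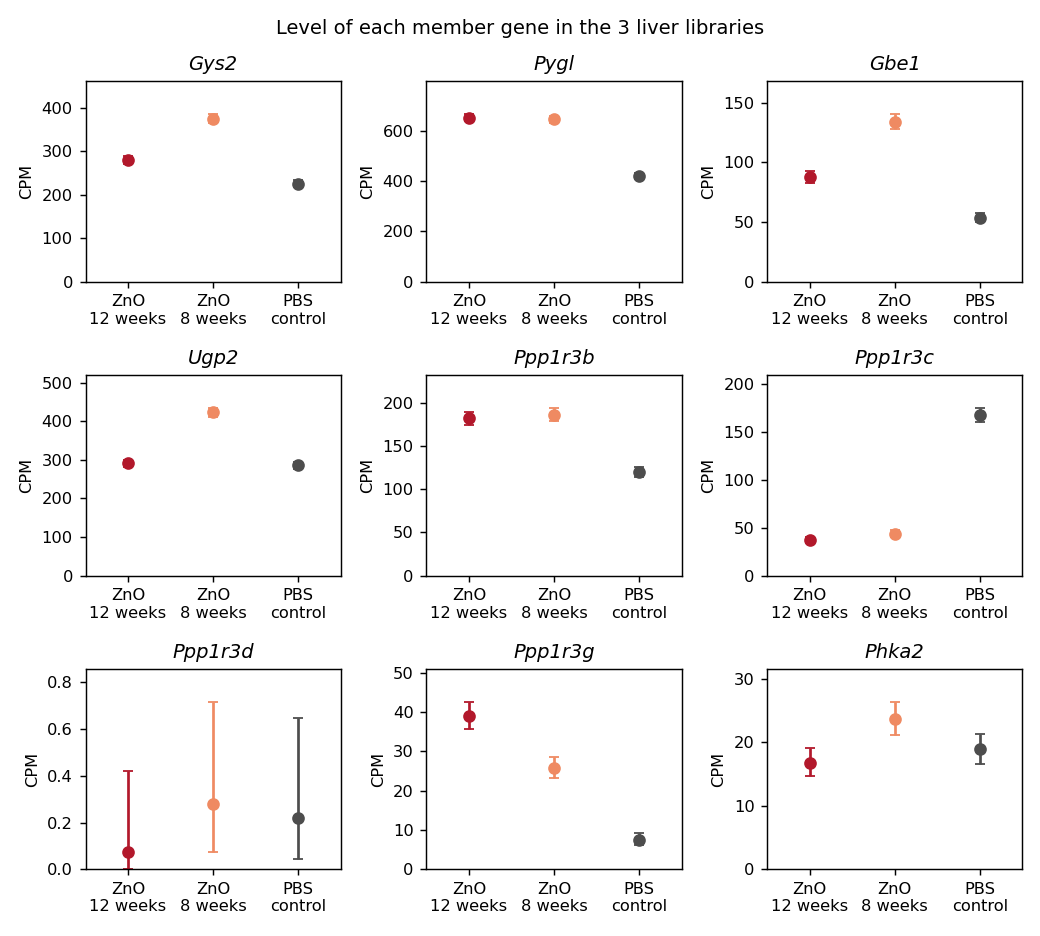
Level of each of the 9 genes in CPM (y axis, from 0, scaled per panel) in the 12-week, 8-week and control libraries (x axis, 1 library each). Points are single libraries and bars are exact 95% Poisson intervals of the count; Ppp1r3c is low and Ppp1r3g high in both treated libraries, and Ppp1r3d has at most 4 counts.

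Defining markers of Kupffer cells and skeletal muscle, and genes of the clock, differed between the same libraries. Summed Kupffer cell markers (10 genes, none at 0) had 256, 345 and 84.7 CPM at 12 weeks, at 8 weeks and in the control, and 9 of 10 were called higher at 12 weeks and 10 of 10 at 8 weeks. Skeletal muscle markers (10 genes) had 18 counts at 12 weeks, 2700 at 8 weeks and 26 in the control, with 4, 0 and 6 of them at 0. Adipocyte markers had 70, 43 and 132 counts, nearly all from Cidec, with Lep and Retn at 0 everywhere. Adipoq and Plin1 had at most 1 count in any library, so a difference in adipocytes cannot be read from these markers. The 9 hepatocyte markers measured had log2 ratios of -0.54 to 0.96 at 12 weeks and -0.60 to 0.54 at 8 weeks, and none was called. Their medians were 0.44 at 12 weeks and 0.06 at 8 weeks, beside 0.46 and 0.63 for the 8 kept glycogen genes. Of 14 clock genes, 1 was called higher and 1 lower at 12 weeks, and 5 higher and 4 lower at 8 weeks. The part of any of these in the values below was not tested, and in whole liver fewer cells of a type and less RNA per cell cannot be told apart.

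Among Gbe1, Gys2 and Ugp2, the branching enzyme Gbe1 differed most at both times. It had 87.6 CPM at 12 weeks, 134 CPM at 8 weeks and 53.7 CPM in the control. The 8-week library was the highest and the control the lowest, and none of the 3 counting intervals overlapped. The log2 ratio was 1.30 at 8 weeks (interval 1.19 to 1.44), which was called. At 12 weeks it was 0.69 (0.57 to 0.84), which was not. By counts scaled to library size with no CPM added, Gbe1 was 2.49-fold higher at 8 weeks and 1.63-fold higher at 12 weeks. Among 14585 genes it was the 354th highest difference at 8 weeks and the 1001st at 12 weeks.

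Gys2, the liver glycogen synthase, had 279 CPM at 12 weeks, 375 CPM at 8 weeks and 225 CPM in the control. The order of the libraries was that of Gbe1, with smaller steps. Its log2 ratio was 0.31 at 12 weeks (0.24 to 0.38) and 0.73 at 8 weeks (0.67 to 0.80), below 2-fold at both. Ugp2, which supplies UDP-glucose, had 291 CPM at 12 weeks, 423 CPM at 8 weeks and 286 CPM in the control. Its 12-week and control intervals overlapped, and only the 8-week library stood apart, with log2 ratios of 0.02 (-0.04 to 0.09) at 12 weeks and 0.56 (0.50 to 0.62) at 8 weeks. Exons of Ugp2 share 78 bases with the opposite-strand model Gm12043, which had 205, 329 and 197 counts in the same order of libraries. The use of strand in counting was not stated, so reads there could belong to either gene. Between the treated libraries, Gbe1 (-0.61), Ugp2 (-0.54) and Gys2 (-0.42) all had lower values at 12 than at 8 weeks, with intervals below 0 and short of 2-fold.

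Pygl, the liver phosphorylase that releases glucose from glycogen, was the most abundant of the 9 per length in each library. It had 651 CPM at 12 weeks, 645 CPM at 8 weeks and 420 CPM in the control. The treated libraries overlapped in their intervals and both lay above the control. The log2 ratios were 0.63 (0.58 to 0.68) at 12 weeks and 0.62 (0.57 to 0.67) at 8 weeks, neither 2-fold. Between 12 and 8 weeks the difference was 0.01 (-0.03 to 0.05), and its sign depended on which library scaling was used.

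Phka2 had 16.8 CPM at 12 weeks, 23.7 CPM at 8 weeks and 18.9 CPM in the control. The 12-week and control intervals overlapped, and the 8-week and control intervals, 21.2 to 26.3 CPM and 16.6 to 21.3 CPM, overlapped slightly. The log2 ratios were -0.16 (-0.44 to 0.09) at 12 weeks and 0.31 (0.09 to 0.57) at 8 weeks, and -0.47 (-0.75 to -0.25) between 12 and 8 weeks. Exons of Phka2 share 115 bases with the opposite-strand model Gm15243, whose counts were 15, 55 and 24 in the order 12 weeks, 8 weeks, control.

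**Figure D2:**
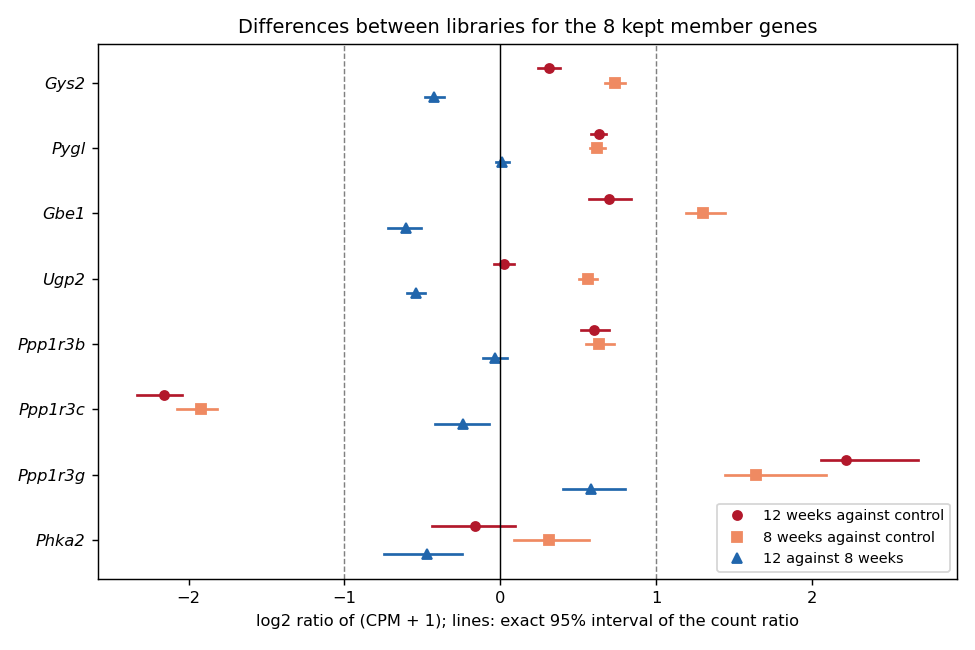
Log2 ratios of CPM + 1 (x axis) for the 8 kept genes (y axis) at 12 weeks against control (circles), 8 weeks against control (squares) and 12 against 8 weeks (triangles). Lines span the exact 95% interval of each count ratio and dashed lines mark 2-fold; Ppp1r3c (-2.16 and -1.92) and Ppp1r3g (2.22 and 1.64) lie past 2-fold in both treated libraries, and Gbe1 at 8 weeks alone (1.30).

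The targeting subunits of PP1 went apart. Ppp1r3c had 489 counts at 12 weeks, 626 at 8 weeks and 2280 in the control, which are 36.9, 43.7 and 168 CPM. Both treated libraries were far below the control and near each other. The count was 4.55-fold lower at 12 weeks (interval 4.13 to 5.03; log2 ratio -2.16) and 3.85-fold lower at 8 weeks (3.52 to 4.21; -1.92). Of 14585 genes it had the 16th lowest log2 ratio at 12 weeks and the 53rd lowest at 8 weeks, and 10 genes, itself included, were at or below it in both. Genes at least 2-fold lower made up 1.34% at 12 weeks and 2.1% at 8 weeks.

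Ppp1r3g went the other way. It had 517 counts at 12 weeks, 369 at 8 weeks and 103 in the control, which are 39.0, 25.8 and 7.59 CPM. The 12-week library was the highest, the control the lowest, and no intervals overlapped. The count was 5.14-fold higher at 12 weeks (4.15 to 6.42; log2 ratio 2.22) and 3.39-fold higher at 8 weeks (2.72 to 4.26; 1.64). These were the 52nd and the 210th highest log2 ratios of 14585, and 43 genes, itself included, were at or above it in both. Genes at least 2-fold higher made up 3.11% at 12 weeks and 4.15% at 8 weeks. Between 12 and 8 weeks Ppp1r3g had 0.58 (0.40 to 0.80), the one kept gene of the 9 with an interval above 0 in that comparison, while Ppp1r3c had -0.24 (-0.42 to -0.07).

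Ppp1r3b, the classical liver subunit, had 182 CPM at 12 weeks, 186 CPM at 8 weeks and 119 CPM in the control. The treated libraries overlapped in their intervals and lay above the control, as for Pygl. Its log2 ratios were 0.60 (0.51 to 0.70) at 12 weeks, 0.64 (0.55 to 0.73) at 8 weeks and -0.03 (-0.11 to 0.05) between 12 and 8 weeks, none of them 2-fold. Ppp1r3d, which encodes a further targeting subunit, had 1, 4 and 3 counts at 12 weeks, at 8 weeks and in the control and was not kept. Its intervals reached up to 0.421, 0.715 and 0.646 CPM, and no difference was detectable at this depth. A count of 3 corresponded to 0.227, 0.209 and 0.221 CPM in these libraries.

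**Figure D3:**
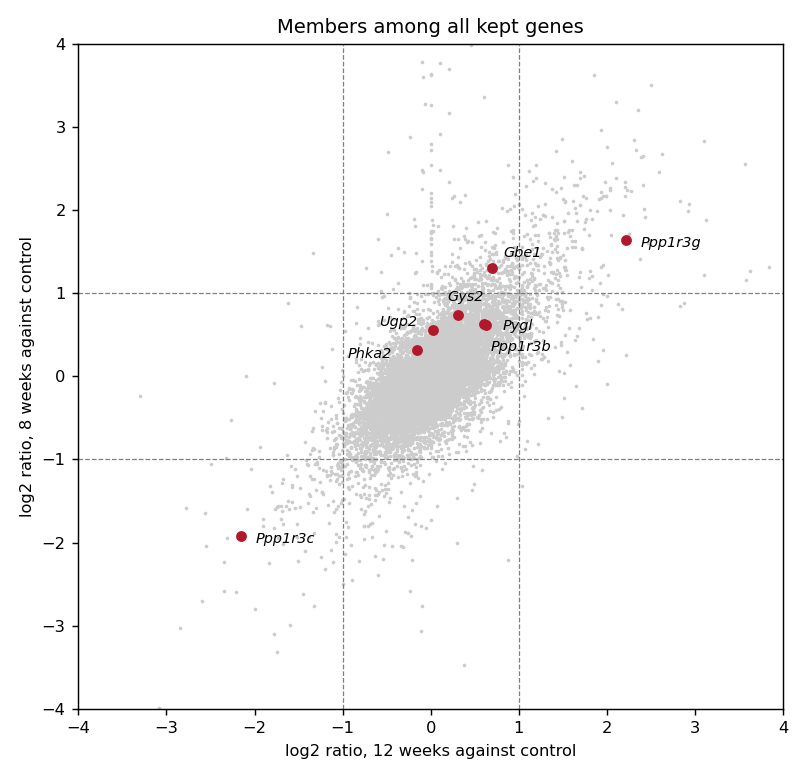
Log2 ratio at 12 weeks against control (x axis) and at 8 weeks against control (y axis) for 14585 genes (grey) and the 8 kept genes (red), with dashed lines at 2-fold. Ppp1r3c lies at the lower left and Ppp1r3g at the upper right edge of the cloud; 30 genes fall outside the axes, and both axes share the control library.

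Counts were then divided by exon length and scaled to the same total in each library (TPM), so that levels of different genes could be set side by side. At 12 weeks the order was Pygl (352 TPM), Gys2 (218), Ugp2 (197), Ppp1r3b (60.6), Gbe1 (33.9), Ppp1r3g (32.1), Ppp1r3c (28.1), Phka2 (5.73) and Ppp1r3d (0.0479). At 8 weeks it was Pygl (358 TPM), Gys2 (299), Ugp2 (293), Ppp1r3b (63.6), Gbe1 (53.1), Ppp1r3c (34.1), Ppp1r3g (21.7), Phka2 (8.28) and Ppp1r3d (0.181). In the control it was Pygl (225 TPM), Ugp2 (192), Gys2 (174), Ppp1r3c (127), Ppp1r3b (39.5), Gbe1 (20.6), Phka2 (6.38), Ppp1r3g (6.19) and Ppp1r3d (0.139). Ppp1r3c thus stood at place 7, 6 and 4, and Ppp1r3g at place 6, 7 and 8, in that order of libraries. Neighbours that did not differ beyond counting error were Gbe1 and Ppp1r3g at 12 weeks (ratio of Gbe1 to Ppp1r3g 1.06, interval 0.951 to 1.17), Gys2 and Ugp2 at 8 weeks (Gys2 to Ugp2 1.02, 0.986 to 1.06), and Phka2 and Ppp1r3g in the control (Phka2 to Ppp1r3g 1.03, 0.818 to 1.31). All other neighbours had intervals clear of 1.

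A ratio of 2 genes within a library does not depend on the scaling of libraries. Per length, Ppp1r3g stood to Ppp1r3c at 1.14 (1.01 to 1.29) at 12 weeks, 0.636 (0.558 to 0.725) at 8 weeks and 0.0488 (0.0396 to 0.0594) in the control. Ppp1r3b stood to Ppp1r3c at 2.15 (1.95 to 2.38) at 12 weeks, 1.86 (1.71 to 2.04) at 8 weeks and 0.311 (0.292 to 0.332) in the control. The leading targeting transcript was therefore Ppp1r3b in both treated libraries and Ppp1r3c in the control. Over the 7 Ppp1r3 subunits of the glycogen-targeting family, Ppp1r3c made up 22.8% of the summed TPM at 12 weeks, 28.0% at 8 weeks and 72.2% in the control. Ppp1r3b made up 49.1%, 52.1% and 22.4%, and Ppp1r3g 26.0%, 17.8% and 3.52%, in the same order of libraries. The sum itself was 124 TPM at 12 weeks, 122 TPM at 8 weeks and 176 TPM in the control.

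**Figure D4:**
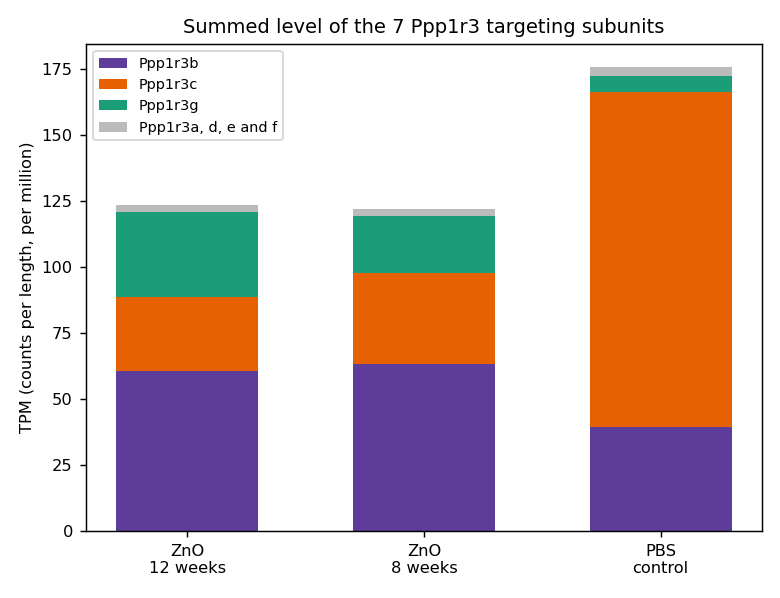
Summed TPM (y axis, from 0) of the 7 Ppp1r3 targeting subunits in the 12-week, 8-week and control libraries (x axis, 1 library each, no error bars), split by gene. Ppp1r3c takes 22.8% of the 12-week bar, 28.0% of the 8-week bar and 72.2% of the control bar.

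The enzymes kept closer proportions. Gys2 stood to Pygl at 0.619 (0.595 to 0.643) per length at 12 weeks, 0.837 (0.809 to 0.865) at 8 weeks and 0.772 (0.739 to 0.807) in the control, so synthase was lowest relative to phosphorylase at 12 weeks. Gbe1 stood to Gys2 at 0.156 (0.146 to 0.166) at 12 weeks, 0.177 (0.168 to 0.187) at 8 weeks and 0.119 (0.109 to 0.129) in the control, higher in both treated libraries. Phka2 stood to Pygl at 0.0163 (0.0142 to 0.0186) at 12 weeks, 0.0231 (0.0207 to 0.0258) at 8 weeks and 0.0283 (0.0249 to 0.0321) in the control, and the 12-week interval lay below the other two. Ppp1r3b stood to Gys2 at 0.278 (0.264 to 0.293) at 12 weeks, 0.212 (0.203 to 0.223) at 8 weeks and 0.227 (0.213 to 0.241) in the control.

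In the rest of glycogen metabolism, as among all genes, few differences reached 2-fold. Of 36 further genes, listed by role, 35 were kept. At 12 weeks 0 of 35 were called (all genes 4.46%; median log2 ratio -0.05). At 8 weeks 1 of 35 was called higher and 0 lower (all genes 6.25%; median 0.08), and between 12 and 8 weeks 1 was called lower (all genes 2.51%). The called gene was Pygm, the muscle form of phosphorylase, with 9 counts at 12 weeks, 77 at 8 weeks and 16 in the control. It was 4.56-fold higher at 8 weeks than in the control (2.64 to 8.37), in the library that held 2700 counts of skeletal muscle markers. Ppp1r3a, the targeting subunit of skeletal muscle, had 5, 12 and 2 counts in the same order and was not kept.

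By role, the other kept genes stayed short of 2-fold in the log2 ratio of CPM + 1. For genes of low count the added CPM matters: by counts scaled to library size with no CPM added, Gyg was 2.14-fold higher at 8 weeks than in the control, with an interval of 1.38 to 3.38 (51, 70 and 31 counts at 12 weeks, at 8 weeks and in the control). Likewise, the kinase subunit Phkg1 was 2.87-fold lower at 8 weeks, with an interval of 1.15 to 8.07 (19, 7 and 19 counts). The targeting subunit Ppp1r3f was 2.64-fold lower, with an interval of 1.11 to 6.93 (16, 8 and 20 counts). In log2 ratios of CPM + 1, glycogenin Gyg, which primes new chains, had 0.56 at 12 weeks and 0.84 at 8 weeks, and the muscle-type synthase Gys1 had 0.21 and -0.00. The phosphoglucomutase Pgm2 had -0.27 and 0.10, and Pgm1, of the same enzyme family, had 0.77 and 0.37. In breakdown, the lysosomal glucosidase Gaa had -0.65 and -0.72. The 7 genes of phosphorylase kinase other than Phka2, which include the calmodulins (Calm2 at 0.06 and 0.24), lay between -0.05 and 0.34 at 12 weeks and between -0.69 and 0.54 at 8 weeks. The 3 catalytic subunits of PP1 lay between -0.20 and -0.06 at 12 weeks and between 0.02 and 0.12 at 8 weeks. Ppp1ca was the most abundant of them per length (-0.20 and 0.06). Transcripts of the catalytic subunits thus differed less than those of the targeting subunits Ppp1r3c and Ppp1r3g. Stbd1, which binds glycogen, had -0.51 and 0.36.

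The 8 kinases of the list, among them Gsk3a and Gsk3b, which inhibit the synthase, lay between -0.46 and 0.06 at 12 weeks and between -0.34 and 0.26 at 8 weeks. Of the genes that move glucose in and out of the hepatocyte pool, the transporter Slc2a2 had 473 CPM at 12 weeks, 733 CPM at 8 weeks and 375 CPM in the control (0.33 and 0.96), an order like that of Gys2 and Gbe1. The phosphatase G6pc, which frees glucose for export, had 374, 648 and 615 CPM (-0.72 and 0.08).

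**Figure D5:**
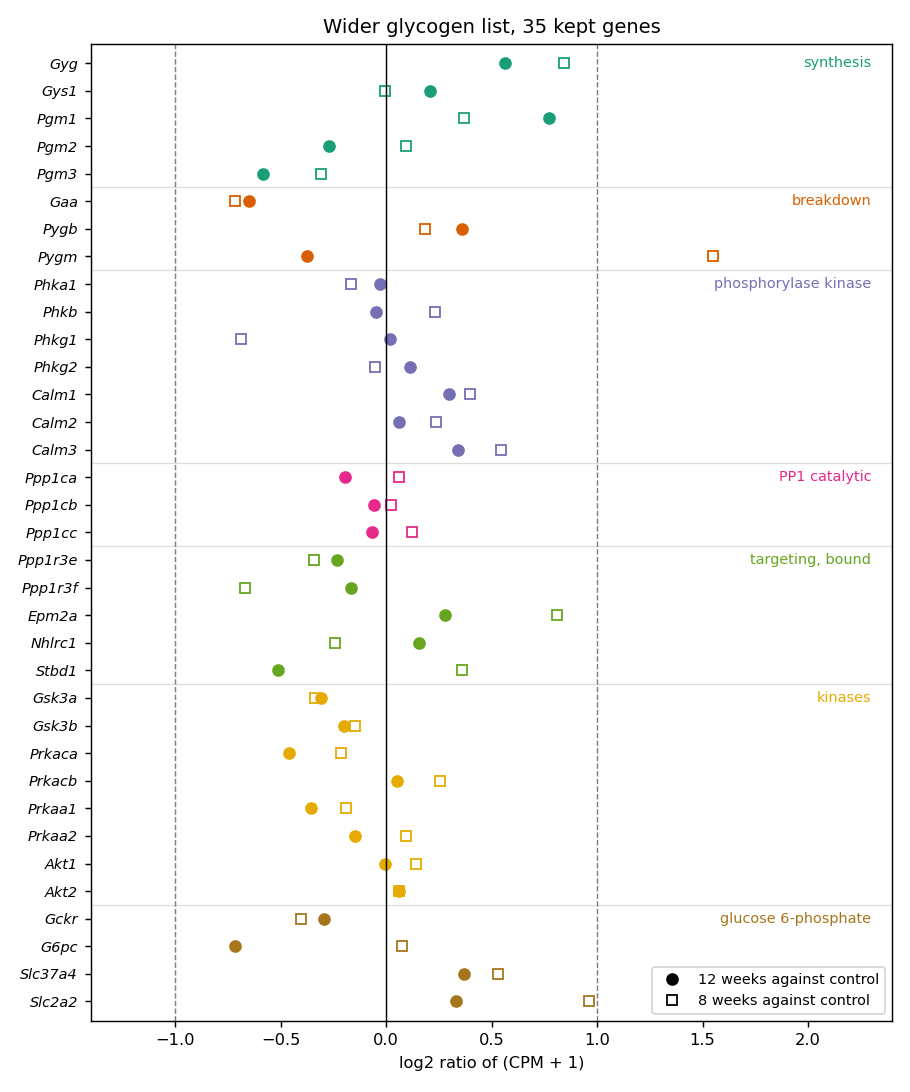
Log2 ratios of CPM + 1 (x axis) for the 35 kept genes of the wider glycogen list (y axis, grouped by role) at 12 weeks against control (filled circles) and 8 weeks against control (open squares), with dashed lines at 2-fold. Pygm at 8 weeks (1.55) is the one point past a dashed line.

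Genes most like Ppp1r3c and Ppp1r3g were sought by Euclidean distance in the 2 log2 ratios against the control, among named genes with at least 5 CPM in 1 library. Nearest to Ppp1r3c were Cyp4a12b (distance 0.16; 14.6, 19.2 and 77.0 CPM at 12 weeks, at 8 weeks and in the control), Rab36 (0.28; 1.89, 2.09 and 9.80 CPM) and Retsat (0.32; 327, 373 and 1232 CPM). Nearest to Ppp1r3g were Serpina3a (0.25; 5.74, 2.72 and 0.221 CPM), H2-Q1 (0.31; 40.6, 34.3 and 8.18 CPM) and Alpk1 (0.40; 5.44, 3.21 and 0.663 CPM). The distances use ratios of CPM + 1, and Serpina3a had only 3 counts and Alpk1 9 in the control. Without the added CPM both differed from the control by more than Ppp1r3g, so their closeness depends on it. Likeness over 3 libraries rests on 2 ratios with a shared control. Cyp4a12b, Serpina3a and H2-Q1 belong to families of similar sequence, and their single values are uncertain.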

How the data were processed

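Each deposited table holds estimated counts per gene for 1 library, without normalization, as its values show. The value column is headed Count in the control alone. Alignment and assembly tools named in the submitters' processing notes are TopHat2 2.1.0 and Cufflinks 2.2.1.0, beside genome builds mm9 and mm10. How reads were counted, and whether by strand, was not given in the sources used here. Against GENCODE release M21, 95.4% of symbols matched, 90.9% of them at identical start and end, which makes the coordinates mm10. Estimated counts were rounded, and TMM factors from edgeR 4.0.16 under R 4.3.3 were 0.999 at 12 weeks, 1.005 at 8 weeks and 0.997 in the control. Other settings tried were the added CPM, the filter, the fold threshold and the library scaling (size factors of DESeq2 1.42.0 among them). Calls and intervals were tried on simulated counts. These held counting noise only, the error that the intervals assume, so they could not test differences between animals. Genes at 2-fold in any comparison, the 6 most abundant genes per length and examples of each role were named from the wider list. That list was drawn up with 2 further genes, which are not reported here. The examples (Gyg, Gys1, Pgm1, Gaa, Phkg1, Ppp1r3a, Ppp1r3f, Gsk3a and Gsk3b) and the stretches of promoter were chosen after the values were seen. Members and lists were chosen with earlier results of these data known. Without molecular identifiers, reads from PCR copies are not independent, so intervals are too narrow.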

Additional observations from a re-analysis of the deposited data

Results flagged for a closer look

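For 3 genes of the wider glycogen list the treated libraries lay on opposite sides of the control, with both counting intervals clear of 0. With 1 library per group the difference between them was not tested, and it is given as the log2 ratio at 12 weeks minus that at 8 weeks. It was -0.87 for Stbd1, a glycogen-binding protein, with 76.3, 140 and 109 CPM at 12 weeks, at 8 weeks and in the control. It was -0.79 for G6pc and -0.37 for the phosphoglucomutase Pgm2, whose intervals at 8 weeks came close to 0 (0.03 to 0.12 and 0.02 to 0.18).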

How the results depend on the processing

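Over 216 recomputed log2 ratios of the 8 kept genes, 2 left their counting intervals, those of Ppp1r3g against the control with 5 CPM added (1.81 at 12 weeks and 1.29 at 8 weeks). The 216 include settings that changed only which genes were kept, and these could not move a ratio. One changed sign, Pygl between 12 and 8 weeks, from 0.01 to -0.0026 under upper quartile scaling. Ppp1r3c ranged from -2.18 to -2.05 at 12 weeks and from -1.94 to -1.83 at 8 weeks, and Ppp1r3g from 1.81 to 2.35 and from 1.29 to 1.75. Counts are given below for 12 weeks against control, 8 weeks against control and 12 against 8 weeks. At 1.5-fold, 5, 6 and 1 of the 8 genes were called, and 2261, 2709 and 1479 of all 14585 genes. Of the 35 kept genes of the wider list, 3, 7 and 5 were called at 1.5-fold. At 3-fold, 2, 2 and 0 of the 8 genes were called, and 180, 317 and 128 of all 14585 genes. Gbe1 at 8 weeks was not called at 3-fold, and 0 of the wider list were called at 8 weeks. With 0.1 CPM added, 1358, 1656 and 848 of all genes were called, and 4 of the wider list at 8 weeks and 2 between 12 and 8 weeks. With 5 CPM added, 259, 429 and 161 of all genes were called, and 0 of the wider list at 8 weeks and 0 between 12 and 8 weeks. Other scalings, filters, unrounded counts, scaling from the 12-week and control libraries alone and leaving out genes found in the 8-week library alone kept every count within 1.5 times, the last 3 chosen after seeing the data. No paired analysis was possible because each group has 1 library, and for the same reason no replicate could be left out. Depth limits Ppp1r3d, with at most 4 counts.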
